A study of Mus musculus with 6 samples.

Results

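The aldehyde dehydrogenase family is described here through 10 of its genes, taken by gene symbol from a table of 31456 rows of gene read counts. The symbols were ALDH1A1, ALDH1A3, ALDH1B1, ALDH2, ALDH3A1, ALDH3A2, ALDH3B1, ALDH7A1, ALDH9A1 and ALDH18A1, and each had exactly 1 row. The counts come from bulk RNA sequencing of HCT116, an established human colorectal carcinoma line, in a parental form (3 libraries) and an oxaliplatin-resistant form (3 libraries). Oxaliplatin is a platinum drug that damages DNA, and the study looked for genes behind resistance to it. No other genotype or treatment is given for either form, nor how the resistant form was derived, whether it is a single clone, or whether drug was present at harvest. The labels name mouse as the organism, whereas the gene identifiers and symbols are human. The labels do not say whether replicate libraries are independent cultures, and the spread behind each p-value may be technical.

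Aldehyde dehydrogenases oxidise aldehydes to carboxylic acids with NAD or NADP as the cofactor. The members differ in substrate and place in the cell: retinaldehyde in the cytosol, acetaldehyde in mitochondria, fatty aldehydes at the endoplasmic reticulum, and intermediates of amino acid and carnitine metabolism. In the gut and in colorectal tumours the family is best known for the activity stain that picks out stem-like cells, to which ALDH1A1 and ALDH1A3 contribute, and for the clearance of aldehydes from lipid peroxidation.

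The libraries held 20246878 to 32138423 counts. At this depth 3 counts, taken as the floor of detection and covering counting error only, corresponded to 0.0975 to 0.153 CPM, counts brought to a common library size with TMM factors. Parental replicate 2 stood apart from its group. Compared with parental replicate 1 its counts gave a chi-square per gene of 11.3, where replicates 1 and 3 gave 2.01 and pairs of resistant libraries 2.69 to 4.51. Epithelial markers were present, with EPCAM at 227 ± 7.10 and 196 ± 4.50 CPM and CDH1 at 42.9 ± 1.23 and 50.1 ± 0.775 CPM in the parental and resistant form (SD, n = 3), while VIL1, CDX1 and LGALS4 had at most 7 counts in any library. Of 6 fibroblast markers with a row, 2 were measurable. The summed level of all 6 was 22.5 to 26.1 CPM in the parental and 39.3 to 44.9 CPM in the resistant libraries, nearly all of it COL1A1. Both tested fibroblast markers were called higher, beside 27.3% of all tested genes. COL1A1 rose 1.71-fold (edgeR adjusted p = 3.3e-06). PDGFRB went from 5, 6 and 2 to 17, 13 and 15 counts (edgeR adjusted p = 0.0026, limma adjusted p on unfiltered FPKM = 0.49). COL3A1 had 1, 1 and 0 against 5, 11 and 9 counts, and COL1A2, DCN and LUM had at most 2. The 5 leukocyte markers used summed to 0.910 to 1.20 and 1.81 to 2.09 CPM, mostly ITGAM, which was 2.03-fold higher (edgeR adjusted p = 0.0011; 0.37 to 0.48 with limma on FPKM). LYZ had 3, 1 and 1 against 5, 7 and 1 counts, CD14 at most 4, and PTPRC and CD3E at most 2. Endothelial markers summed to 0.916 to 1.07 and 0.844 to 1.47 CPM. The part of other cell types in the results below was not tested. In bulk RNA fewer expressing cells and less RNA per cell cannot be told apart.

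In the resistant cells 4 members were higher, 3 were lower and 3 did not pass the test. ALDH3A1, ALDH3A2, ALDH2 and ALDH1A3 rose, by 28.3-fold, 2.71-fold, 2.15-fold and 1.75-fold. ALDH3B1, ALDH1B1 and ALDH9A1 fell, by 2.22-fold, 1.40-fold and 1.18-fold. ALDH1A1, ALDH7A1 and ALDH18A1 did not pass the threshold. The test was edgeR's quasi-likelihood test on the counts with Benjamini-Hochberg adjustment over 16605 genes and a threshold of 0.05. All 10 members passed its filter on low counts. Calls were common in the whole table: 53.8% of all tested genes passed, 27.3% being higher and 26.5% lower, and 7 called members of 10 are read against that background. With library sizes alone in place of TMM, 65.3% of all calls were higher in the resistant form, against 50.8% with TMM. At a change of at least 2-fold the background was 8.15% of tested genes, and 4 members of 10 passed (ALDH3A1, ALDH3A2, ALDH2 and ALDH3B1). The CPM of the forms did not overlap in 7 of 10 members, beside 61.2% of all tested genes. The median log2 fold change was 0.26 over the members and 0.02 over all tested genes. The members' median lies between ALDH7A1 and ALDH1A1, and it was 0.08 without parental replicate 2, the library in which ALDH1A1 had no read.

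**Figure D1:**
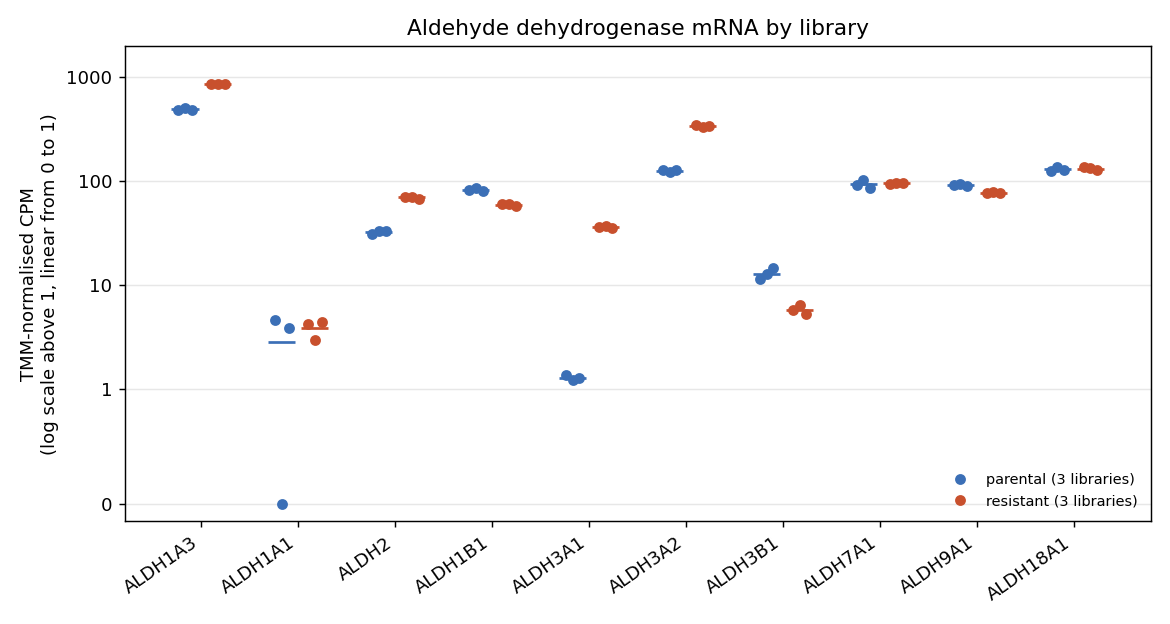
TMM-normalised CPM (y axis, logarithmic above 1 and linear from 0 to 1) of the 10 aldehyde dehydrogenase genes (x axis) in each of 3 parental and 3 resistant libraries. Points are libraries and horizontal lines are means. ALDH3A1 moves from near 1 CPM to above 35 CPM, and ALDH1A1 lies at 0 in parental replicate 2 alone.

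ALDH1A3 (ENSG00000184254.17) makes retinoic acid from retinaldehyde in the cytosol. It had 12793, 15401 and 9533 counts in parental replicates 1 to 3 and 21314, 25110 and 22261 counts in resistant replicates 1 to 3. The resistant libraries were all high and close together, at 856, 859 and 858 CPM, and the parental ones lay at 481, 501 and 485 CPM. The log2 fold change was 0.81 ± 0.04 (SE; adjusted p by edgeR = 1.5e-08), higher in 3 of 3 resistant libraries.

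ALDH1A1 (ENSG00000165092.13), the other retinaldehyde dehydrogenase among the members, had 123, 0 and 75 counts in parental replicates 1 to 3 and 105, 86 and 114 counts in resistant replicates 1 to 3. The forms overlapped, and parental replicate 2, the deepest library, was the single library without a read. At the mean level of parental replicates 1 and 3, 130 counts would have been found there, whereas a count of 0 allows at most 0.0975 CPM. In CPM the other parental libraries had 4.62 and 3.82 and the resistant ones 4.22, 2.94 and 4.39. The log2 fold change was 0.50 ± 1.11 (SE), with a 95% interval of -2.51 to 3.50 and an edgeR adjusted p of 0.74. Without parental replicate 2 it was -0.15, edgeR adjusted p = 0.52, so the sign of the estimate rests on that library. No other row with a human identifier was at 0 in parental replicate 2 and at 50 counts or more in each other library, except the pseudogene LDHAP4. This count was made after the values were seen.

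ALDH2 (ENSG00000111275.13) is the mitochondrial enzyme that clears acetaldehyde after alcohol intake. It had 30.8, 33.3 and 32.8 CPM in the parental and 70.6, 70.3 and 67.8 CPM in the resistant libraries. The forms were far apart relative to the spread within each, with a log2 fold change of 1.11 ± 0.05 (SE; adjusted p by edgeR = 9.8e-09). ALDH1B1 (ENSG00000137124.8), a mitochondrial relative that also accepts acetaldehyde, went the other way. Its parental libraries had 82.2, 85.4 and 81.0 CPM and its resistant libraries 60.0, 60.5 and 57.7 CPM. Every resistant library was below every parental one, and the log2 fold change was -0.48 ± 0.05 (SE; adjusted p by edgeR = 5.4e-06).

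ALDH3A1 (ENSG00000108602.18) oxidises aromatic and medium-chain aldehydes, is abundant in the cornea, and can be induced through the aryl hydrocarbon (Ah) receptor. It had 36, 37 and 25 counts in the parental and 908, 1074 and 918 counts in the resistant libraries. That is 1.35, 1.20 and 1.27 CPM against 36.5, 36.7 and 35.4 CPM, low in every parental library and with no overlap. The log2 fold change was 4.82 ± 0.08 (SE; adjusted p by edgeR = 5.7e-12). Of 11625 genes with a symbol and a mean of at least 5 CPM, ALDH3A1 had the fold change of rank 8 from the top. ALDH3A2 had rank 155, ALDH2 rank 249 and ALDH1A3 rank 463. The mean was taken over both forms, so a gene low in the parental form could enter through the resistant form alone. ALDH3A1 was itself such a gene, averaging 1.28 CPM over the parental libraries and 36.2 CPM over the resistant ones. A gene this low in the parental form was ranked only if it rose, so a high rank is partly built into the filter. ALDH1L1, with a log2 fold change of 4.92, lay below the mean of 5 CPM and was not ranked.

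ALDH3A2 (ENSG00000072210.18), the fatty aldehyde dehydrogenase of the endoplasmic reticulum, is a neighbour of ALDH3A1 on the same chromosome arm. Its levels were 127, 121 and 128 CPM in the parental and 347, 328 and 342 CPM in the resistant libraries, with no overlap. The log2 fold change was 1.44 ± 0.04 (SE; adjusted p by edgeR = 2.7e-10). On FPKM, a scale per gene length that allows levels of different genes to be compared, ALDH3A1 stood at 1.67% ± 0.0446 of ALDH3A2 in the parental and 17.7% ± 1.10 in the resistant libraries (SD, n = 3). The neighbours therefore rose by unequal amounts.

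ALDH3B1 (ENSG00000006534.16), a membrane-associated enzyme for lipid-derived aldehydes, fell. It had 300, 390 and 286 counts in the parental and 141, 187 and 135 counts in the resistant libraries, or 11.3, 12.7 and 14.6 against 5.67, 6.40 and 5.20 CPM. The lowest parental library was well above the highest resistant one, and the log2 fold change was -1.15 ± 0.12 (SE; adjusted p by edgeR = 6.5e-06). ALDH3B1 and ALDH3B2 are close copies, so the division of reads between them is uncertain.

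The profile of ALDH3A1 over the 6 libraries was most like that of 3 genes, measured as the Euclidean distance between log2 CPM profiles, each centred on its own mean, among 11624 other genes. They were DHRS2 (distance 0.56), a short-chain dehydrogenase/reductase gene, PURPL (0.62), a long non-coding RNA, and C1QTNF12 (0.68), against a median distance of 5.82. DHRS2 had 26.3, 32.6 and 27.3 CPM in the parental and 956, 1010 and 951 CPM in the resistant libraries. The mean of PURPL went from 0.516 to 11.6 CPM and that of C1QTNF12 from 0.426 to 10.2 CPM. Both entered the comparison only through their level in the resistant form. The distance reflects mainly the step between the forms, which all libraries of a form share.

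ALDH9A1 (ENSG00000143149.12), which acts in carnitine synthesis and on amino-aldehydes from polyamines, was slightly lower in the resistant cells. It had 90.7, 92.7 and 89.6 CPM in the parental and 76.6, 78.5 and 76.6 CPM in the resistant libraries. The forms did not overlap, and the log2 fold change was -0.24 ± 0.04 (SE; adjusted p by edgeR = 7.1e-04), the smallest change among the called members.

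ALDH7A1 (ENSG00000164904.18), also called antiquitin, oxidises a semialdehyde in the breakdown of lysine. It had 91.2, 102 and 86.6 CPM in the parental and 93.9, 95.9 and 96.2 CPM in the resistant libraries, with the resistant values inside the parental range. The log2 fold change was 0.03 ± 0.06 (SE), with a 95% interval of -0.10 to 0.16 and an edgeR adjusted p of 0.69. ALDH18A1 (ENSG00000059573.9) encodes the enzyme that starts proline synthesis from glutamate, working as a kinase and reductase. Its parental libraries had 125, 138 and 127 CPM and its resistant libraries 135, 134 and 127 CPM, again overlapping. The log2 fold change was 0.02 ± 0.05 (SE), with a 95% interval of -0.09 to 0.13 and an edgeR adjusted p of 0.73. The sign of either estimate changed when 1 parental library was left out: ALDH7A1 was at -0.03 without replicate 3, and ALDH18A1 at -0.02 without replicate 1 and -0.0023 without replicate 3.

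The summed level of the 10 genes was higher in the resistant cells. It was 1044, 1087 and 1050 CPM in parental replicates 1 to 3 and 1686, 1672 and 1670 CPM in resistant replicates 1 to 3, a ratio of means of 1.58. All resistant libraries were above all parental ones. An exact permutation test (two-sided) gave p = 0.10, the smallest that 3 against 3 libraries allow. ALDH1A3 supplied 369 CPM and ALDH3A2 214 CPM of the difference of 616 CPM, together 94.6% of it. ALDH1B1, ALDH9A1 and ALDH3B1 contributed -23.5, -13.8 and -7.08 CPM. On FPKM the totals were 392, 401 and 392 against 688, 672 and 677, and ALDH1A3 and ALDH3A2 gave 85.2% of the difference and ALDH3A1 another 10.1%.

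**Figure D2:**
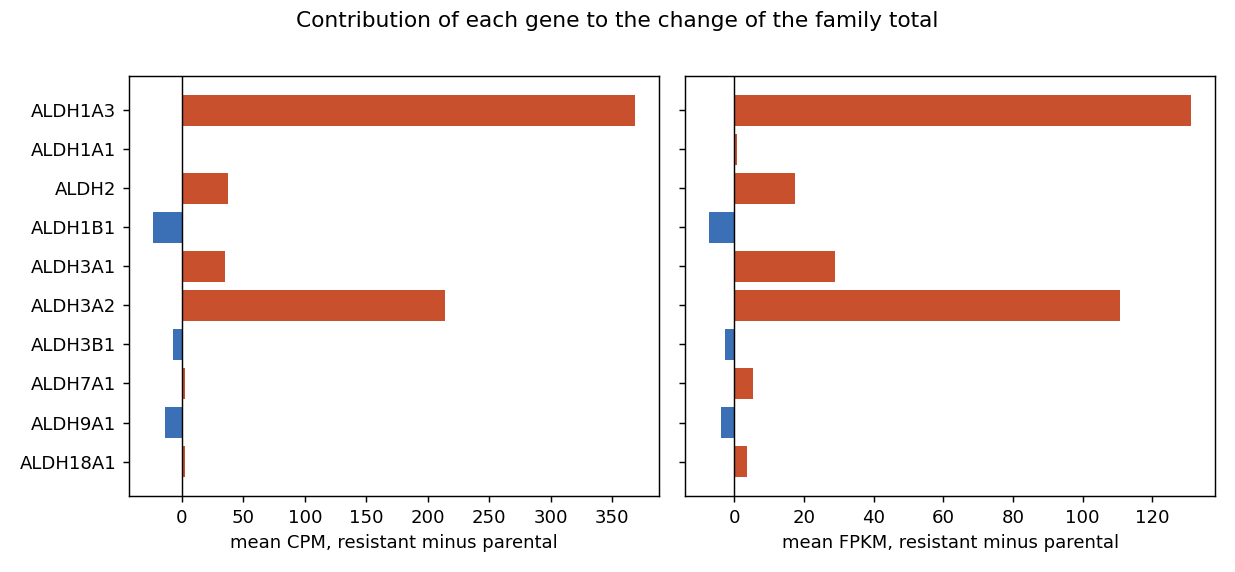
Mean level in the resistant minus mean level in the parental libraries (x axes) for each of the 10 genes, in TMM-normalised CPM on the left and FPKM on the right. ALDH1A3 and ALDH3A2 have the longest bars on both scales, and ALDH1B1, ALDH9A1 and ALDH3B1 lie below 0.

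Within that total the make-up shifted. ALDH3A2 took 12.2%, 11.1% and 12.2% of the family CPM in the parental and 20.6%, 19.6% and 20.5% in the resistant libraries, a gain of 8.41 percentage points. ALDH1A3 kept the largest share, with 46.1% ± 0.113 and 51.2% ± 0.338 (SD, n = 3). The share of ALDH3A1 went from 0.120% ± 0.00946 to 2.16% ± 0.0394, and that of ALDH2 from 3.05% ± 0.0881 to 4.15% ± 0.0787. These 4 genes were the ones with a higher share in the resistant form.

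The other members had lower shares. ALDH18A1 went from 12.2% ± 0.401 to 7.87% ± 0.221 (SD, n = 3), and ALDH7A1 from 8.78% ± 0.567 to 5.69% ± 0.104, although the levels of both genes did not pass the test. ALDH1B1 went from 7.81% ± 0.0855 to 3.54% ± 0.0819 and ALDH9A1 from 8.58% ± 0.0863 to 4.61% ± 0.0768. ALDH3B1 went from 1.21% ± 0.159 to 0.343% ± 0.0361. The share of ALDH1A1 was 0.443%, 0% and 0.364% in the parental and 0.250%, 0.176% and 0.263% in the resistant libraries and overlapped. The shares of the other 9 members did not overlap between the forms. In CPM 7 of 10 members did not overlap, beside 61.2% of all tested genes, and no such background was computed for shares. The total was 1.58 times higher in the resistant form, so a gene with an unchanged level, such as ALDH7A1 or ALDH18A1, loses share. The 9 shares are therefore not 9 separate changes. For each of these 9 members the exact permutation p was 0.10, the smallest possible. For ALDH1A1 it was 0.80, with 10 such tests made.

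Shares of CPM favour long transcripts, so the make-up was also computed per length. Of the family FPKM, ALDH1A3 held 37.2% ± 0.582 in the parental and 41.0% ± 0.384 in the resistant form (SD, n = 3), and ALDH3A2 14.6% ± 0.868 and 24.8% ± 0.813. ALDH3A1 held 0.244% ± 0.0208 and 4.38% ± 0.123. In groups, the ALDH3 subfamily (ALDH3A1, ALDH3A2 and ALDH3B1) together held 16.1% ± 0.912 and 29.5% ± 0.658 of the FPKM, although the share of ALDH3B1 fell. The retinaldehyde enzymes ALDH1A1 and ALDH1A3 held 37.6% ± 0.789 and 41.3% ± 0.396. The mitochondrial acetaldehyde enzymes ALDH2 and ALDH1B1 held 11.2% ± 0.295 and 8.02% ± 0.283. The amino acid and amine enzymes ALDH7A1, ALDH9A1 and ALDH18A1 held 35.1% ± 1.32 and 21.2% ± 0.494.

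**Figure D3:**
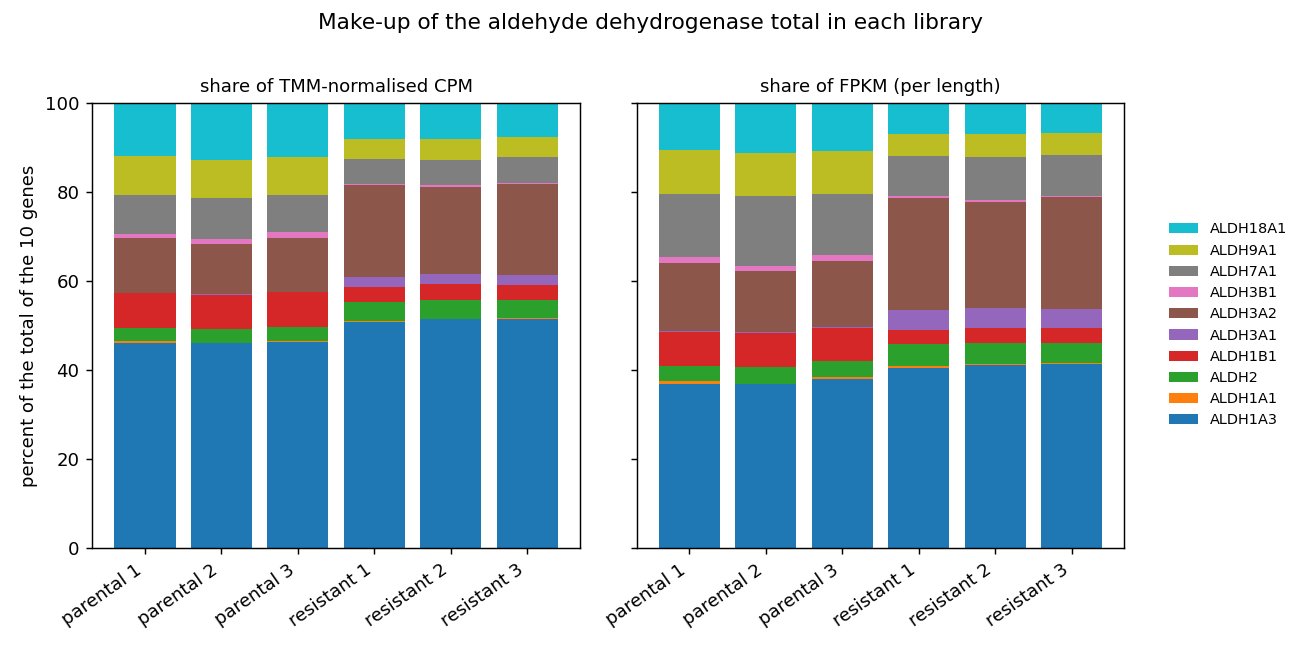
Percent of the summed level of the 10 genes (y axis) held by each gene in each library (x axis), as shares of TMM-normalised CPM on the left and of FPKM on the right. The ALDH3A2 band widens and the ALDH7A1, ALDH9A1 and ALDH18A1 bands narrow in the 3 resistant libraries on both scales.

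The order of the levels per length in the parental form was ALDH1A3 (147 ± 2.07 FPKM), ALDH3A2 (57.5 ± 2.69), ALDH7A1 (57.3 ± 4.99), ALDH18A1 (42.9 ± 2.15), ALDH9A1 (38.5 ± 0.679), ALDH1B1 (29.9 ± 0.693), ALDH2 (14.3 ± 1.17), ALDH3B1 (5.13 ± 0.512), ALDH1A1 (1.61 ± 1.43) and ALDH3A1 (0.963 ± 0.0702; SD, n = 3). Of the neighbours in this order ALDH3A2 and ALDH7A1 overlapped, as did ALDH1A1 and ALDH3A1. In the resistant form ALDH1A3 (278 ± 1.67 FPKM) and ALDH3A2 (168 ± 7.16) still led, and ALDH3A2 stood clear of ALDH7A1 (62.6 ± 1.62). ALDH3A1 moved from the last place to the seventh, at 29.8 ± 0.636 FPKM, where it overlapped with ALDH2 (31.8 ± 1.68). ALDH1B1 followed at 22.6 ± 0.554 FPKM, and ALDH3B1 (2.45 ± 0.226) and ALDH1A1 (2.32 ± 0.567) overlapped at the end.

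The remaining 9 human ALDH genes with a row served as a comparison, and 8 of them were tested. Of these 3 were higher, 3 were lower and 2 did not pass, beside 27.3% higher and 26.5% lower among all tested genes. The median log2 fold change of the 8 was -0.07. ALDH1L1 (ENSG00000144908.13), the cytosolic formyltetrahydrofolate dehydrogenase of folate metabolism, had 5, 6 and 1 counts in the parental and 106, 152 and 130 counts in the resistant libraries. That is 0.145 ± 0.0812 against 4.82 ± 0.497 CPM (SD, n = 3), with a log2 fold change of 4.92 ± 0.27 (SE; adjusted p by edgeR = 2.9e-08). Its log2 fold change ran from 1.76 to 5.17 over the alternatives. ALDH1L2, the mitochondrial counterpart, went from 4.04 ± 0.520 to 2.56 ± 0.211 CPM (log2 fold change -0.65 ± 0.15 SE, edgeR adjusted p = 0.0028). That call was lost on FPKM, with limma adjusted p-values of 0.16 to 0.23.

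Among the genes of amino acid breakdown, ALDH5A1, the succinate semialdehyde dehydrogenase of GABA breakdown, rose 1.54-fold to 37.7 ± 0.925 CPM (edgeR adjusted p = 3.2e-06). ALDH4A1, which completes proline breakdown, rose by 0.32 on the log2 scale (edgeR adjusted p = 0.0064). ALDH6A1 (valine breakdown) and ALDH8A1 did not pass, with log2 fold changes of -0.10 and -0.05. ALDH3B2 fell 2.20-fold with its close copy ALDH3B1, from 0.945 ± 0.295 to 0.437 ± 0.113 CPM (edgeR adjusted p = 0.0098). The ALDH3B2 adjusted p was 0.063 in DESeq2 and 0.058 to 0.089 with limma on FPKM. ALDH16A1 fell 1.12-fold (edgeR adjusted p = 0.030), a call lost with library sizes alone (adjusted p = 0.33), in DESeq2 (0.055) and on FPKM (0.36 to 0.50). Leaving out 1 library also ended it for parental replicate 1 (0.11) and for resistant replicates 1 (0.069) and 3 (0.12). ALDH1A2 had at most 1 count in any library, which is below the floor.

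**Figure D4:**
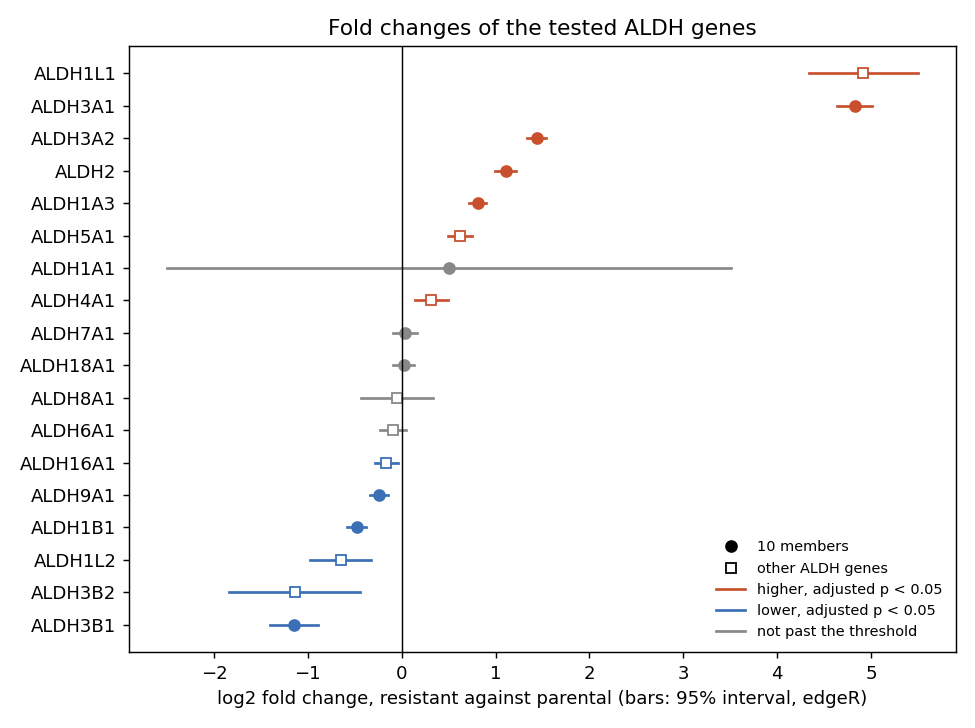
Log2 fold change of the resistant against the parental form (x axis) for the 18 tested ALDH genes (y axis), with 95% intervals from edgeR. Filled circles are the 10 members and open squares the other ALDH genes. ALDH3A1 and ALDH1L1 lie near 5, and the interval of ALDH1A1 spans -2.51 to 3.50.

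Genes of the retinoid pathway, which supply retinaldehyde to ALDH1A1 and ALDH1A3 or respond to retinoic acid, went in both directions. Of 16 tested genes 9 were higher, 4 lower and 3 did not pass, with a median log2 fold change of 0.32, beside 27.3% higher and 26.5% lower among all tested genes. DHRS3, a retinaldehyde reductase that retinoic acid induces, rose 4.52-fold from 7.58 ± 0.393 to 34.5 ± 0.0508 CPM (SD, n = 3). TGM2, the tissue transglutaminase gene, rose 2.44-fold to 59.9 ± 1.15 CPM, and CRABP2, a retinoic acid carrier protein gene, rose 1.60-fold to 126 ± 1.73 CPM. RDH11, a retinol dehydrogenase gene, fell 1.40-fold to 83.5 ± 2.17 CPM. The least certain of these was RDH11, with an edgeR adjusted p of 4.25e-06. The other lower genes, named after their values were seen, were RDH13, RARG and RXRB, with log2 fold changes of -0.40, -0.37 and -0.36. The RXRB call was lost on FPKM (limma adjusted p = 0.079 to 0.17).

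Low-level retinoid genes are named here after their values were seen. CYP26A1, which breaks down retinoic acid, had 3, 6 and 5 counts in the parental and 15, 20 and 28 counts in the resistant libraries (edgeR adjusted p = 8.5e-04; 0.051 with limma on unfiltered FPKM). DHRS9, a retinol dehydrogenase gene, had 3, 4 and 1 against 14, 15 and 17 counts (edgeR adjusted p = 3.9e-04). STRA6, the retinol uptake receptor gene, had 1, 0 and 6 against 18, 11 and 15 counts (edgeR adjusted p = 0.014), and lost its call without parental replicate 1 (0.058) or resistant replicate 1 (0.053), and with limma on unfiltered FPKM (0.17). RARRES3, a retinoid-responsive gene too low to be tested, had 10, 11 and 10 against 5, 4 and 3 counts, lower in the resistant form without overlap. RARB, a receptor gene that retinoic acid induces, had at most 2 counts. On FPKM with the filter, 5 of 14 tested retinoid genes were higher and 4 lower. With a pseudocount of 1 that setting called 6311 of 16626 genes, 3674 of them higher.

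Of 16 tested genes that generate aldehydes or act beside that step, 9 were higher, 4 lower and 3 did not pass. The 9 include CAT and the aldehyde oxidase gene AOX1, named after its value was seen. The count is therefore not one of aldehyde sources alone. The median log2 fold change was 0.19, and the background was 27.3% higher and 26.5% lower among all tested genes. DESeq2, which covered 21 genes of this list, called 5 higher and 4 lower. Without parental replicate 1 edgeR called 6 of 16 higher and 4 lower. In all, these settings called 7591 of 30991 and 8126 of 16830 genes. CAT, the catalase gene, rose 1.58-fold to 82.4 ± 1.61 CPM and SAT1, which starts polyamine breakdown, rose 1.48-fold to 297 ± 4.70 CPM. MAOB, a monoamine oxidase gene, fell 1.52-fold to 23.1 ± 0.636 CPM. CHDH, the choline dehydrogenase gene, fell 1.63-fold to 17.0 ± 0.868 CPM, a call lost on FPKM (limma adjusted p = 0.055 to 0.13). SGPL1, the sphingosine phosphate lyase gene whose fatty aldehyde product is oxidised by ALDH3A2, was named after its value was seen: it rose 1.30-fold, from 114 ± 3.05 to 148 ± 2.60 CPM (edgeR adjusted p = 2.0e-05).

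Of 13 tested reductases that also remove or form carbonyl compounds, 5 were higher, 4 lower and 4 did not pass (median log2 fold change 0.02). The background was 27.3% higher and 26.5% lower among all tested genes. With limma on FPKM 5 of 13 were higher with the filter and 4 of 14 without it. In each case 1 was lower, since AKR1A1, DCXR and FAR2 lost their calls. At a pseudocount of 1 these settings called 3674 of 16626 and 3133 of 31456 genes higher. PTGR1, which reduces unsaturated carbonyls, rose 3.93-fold to 136 ± 5.53 CPM. AKR1B1, the aldose reductase gene, rose from 43.3 ± 2.10 to 86.6 ± 1.08 CPM, and CBR3, a carbonyl reductase gene, rose 2.24-fold to 3.04 ± 0.306 CPM. SPR, the sepiapterin reductase gene, fell 1.68-fold to 27.7 ± 1.18 CPM. CBR3 had the highest edgeR adjusted p among them, 5.5e-04.

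Around ALDH18A1, 4 of 8 tested proline synthesis genes were lower, none was higher and 4 did not pass (median log2 fold change -0.11). Among all tested genes 26.5% were lower and 27.3% higher. In edgeR, 0 genes of this list were higher at the threshold, and 1 was with the replicate number as a block. That block fit called 5010 of 16605 genes higher. PYCR3 fell 2.02-fold to 10.9 ± 0.958 CPM, PYCR1 fell by 0.32 on the log2 scale to 212 ± 7.51 CPM, and OAT, which makes the same intermediate from ornithine, fell 1.12-fold. GLUL, the glutamine synthetase gene, fell 1.72-fold to 94.6 ± 2.24 CPM. The PYCR1 and OAT calls were lost on FPKM (limma adjusted p = 0.057 to 0.13 and 0.15 to 0.22), and that of OAT also with library sizes alone (edgeR adjusted p = 0.18). Around ALDH7A1 and ALDH9A1, 3 of 9 tested genes of lysine, carnitine and GABA metabolism were higher and 6 did not pass. The background of 27.3% higher and 26.5% lower applies here too. The 3 were DHTKD1 (1.66-fold) and AASS (1.35-fold) of lysine breakdown, and ABAT (1.71-fold) of GABA breakdown, the highest edgeR adjusted p being 8.8e-04 for AASS, which was 0.068 with limma on unfiltered FPKM. GCDH, the glutaryl-CoA dehydrogenase gene, had an edgeR adjusted p of 0.057 and a log2 fold change of -0.21. Its adjusted p was 0.045 without parental replicate 3, 0.025 without resistant replicate 1, 0.0496 with RLE factors, 0.020 with no filter and 0.019 with a replicate block.

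ALDH3A1 belongs to the classical set of Ah receptor target genes, and its relatives in that set and the NRF2 regulators were listed beside it. Of 9 tested genes 6 were higher and 3 did not pass (median log2 fold change 0.17), beside 27.3% higher and 26.5% lower among all tested genes. But 4 of 9 were higher without resistant replicate 1, and 4 of 11 covered genes in DESeq2 and with limma on unfiltered FPKM. Among all genes these settings called 3869 of 16965, 3488 of 30991 and 3133 of 31456 higher. ARNT and TIPARP, named after their values were seen, lost their calls in several alternatives, ARNT with a log2 fold change of -0.01 on FPKM. NQO1, the quinone reductase gene, had 409 ± 5.15 and 1612 ± 11.8 CPM (SD, n = 3), a log2 fold change of 1.98. CYP1A1, the most used marker of Ah receptor activity, rose 2.73-fold from 4.24 ± 0.313 to 11.6 ± 0.563 CPM (edgeR adjusted p = 2.1e-07). CYP1B1, another target, had 3.88 ± 1.03 and 3.72 ± 0.413 CPM, with a log2 fold change of -0.04 ± 0.19 (SE). NFE2L2, the gene of NRF2, rose 2.34-fold from 133 ± 3.61 to 312 CPM. AHR itself rose 1.28-fold to 62.0 ± 3.07 CPM (edgeR adjusted p = 3.6e-04; 0.0998 with limma on unfiltered FPKM), while AHRR and KEAP1 did not pass. The part of either factor in the ALDH3A1 level was not tested.

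Among markers used with aldehyde dehydrogenase activity to define stem-like colorectal cells, 3 of 7 tested were lower, 1 was higher and 3 did not pass. The median log2 fold change was -0.17, and the background was 26.5% lower and 27.3% higher among all tested genes. CD44 fell 1.77-fold from 736 ± 19.3 to 416 ± 7.14 CPM, and PROM1, the CD133 gene, fell 1.95-fold from 36.0 ± 1.36 to 18.4 ± 0.464 CPM. EPCAM fell 1.16-fold, a call lost on FPKM (limma adjusted p = 0.21 to 0.34). SOX9 rose 1.14-fold and lost its call without resistant replicate 1 (edgeR adjusted p = 0.080) or resistant replicate 3 (0.12), and with limma on unfiltered FPKM (0.078). LGR5 and ASCL2 were too low to test. Without parental replicate 2 the list had 5 lower and 1 higher, in a fit that called 9209 of 16867 genes.

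**Figure D5:**
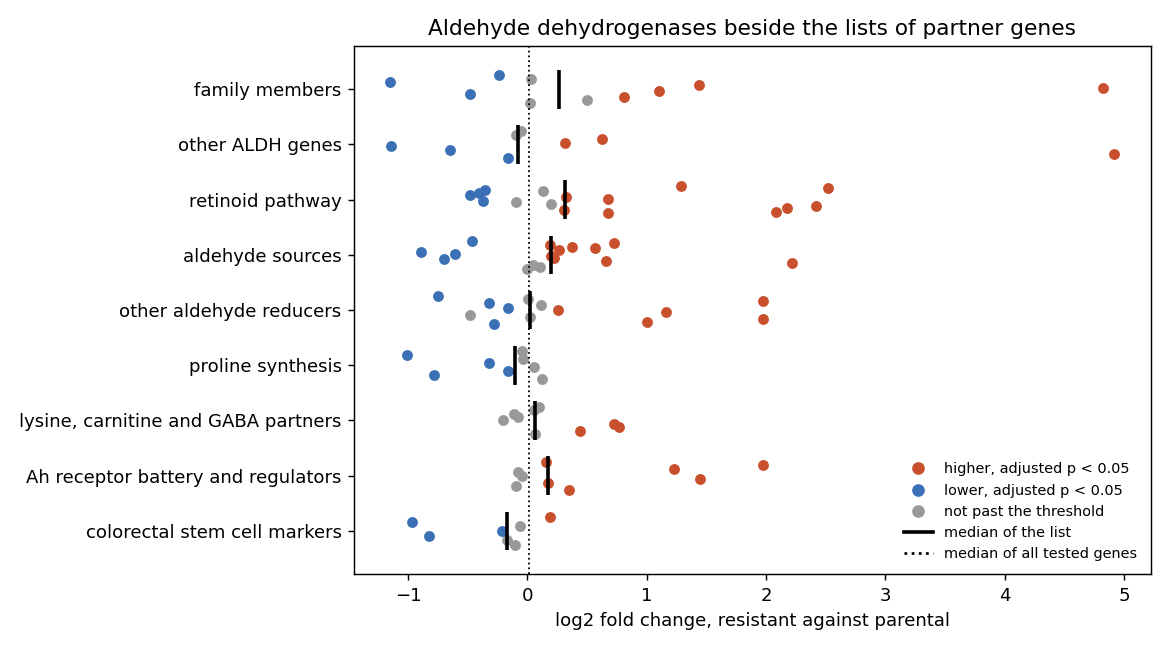
Log2 fold change of the resistant against the parental form (x axis) for each tested gene of the family and of the lists of partner genes (y axis). Points are genes, thick black bars the list medians and the dotted line the median of all tested genes at 0.02. The family spans -1.15 to 4.82, and no called gene lies above 0 in the proline synthesis list.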

How the data were processed

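Per the labels' protocols, total RNA of 3 parental and 3 resistant HCT116 samples went into SMARTER libraries. The authors deposited read counts per gene, whole numbers without normalization. A second deposited table, whose header names no unit, was taken as FPKM. The ratio of its values to CPM was nearly fixed for each member (1.01 to 1.14 times between the lowest and highest library) but not for every gene. Over 11470 rows with at least 100 counts in every library the median was 1.12 times and the 95th percentile 1.48 times, so FPKM and counts can differ for the same gene. The submitters' processing notes name GRCm38 and mm10, but the identifiers are human, so no coordinates or sequences are given. Which aligner and counter were used, and whether counting used strand, is not given in the sources used here. Columns were assigned through the sample descriptions. Numbered features with no gene name or human identifier (840 of 31456 rows, 0.915% of counts) stayed in the fits and are not named.

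Counts were tested with edgeR 4.0.16 in R 4.3.3 (TMM, filterByExpr, robust glmQLFit and glmQLFTest, two-sided). The SE is the log2 fold change divided by the square root of F. Shares and totals used TMM-normalised CPM with exact permutation tests. Alternatives used RLE factors, library sizes alone, other filters, DESeq2 1.42.0, a replicate block, leaving out each library, and limma 3.58.1 on log2(FPKM + 1) or log2(FPKM + 0.1) with a mean of at least 0.5 FPKM or no filter. Fold changes on that scale understate low genes.

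The members and gene lists were chosen with earlier results of these data known. All members and other ALDH genes are named. Up to 4 genes per further list were named by smallest adjusted p, plus AHR and NFE2L2, and others as stated. CRABP1, RXRG, ADH7, OLFM4, POSTN and PECAM1 were listed but had no row, so they were not analysed here. PYCRL, also listed without a row, is another name of PYCR3, which was analysed. A further marker gene is not reported here.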

Additional observations from a re-analysis of the deposited data

How the results depend on the processing

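The 4 higher and 3 lower calls among the members had the same counts in all 15 alternatives, and 146 of 150 alternative fits of single members kept direction and side of the threshold. The exceptions were uncalled members whose sign changed: ALDH1A1 at -0.15 without parental replicate 2, ALDH7A1 at -0.028 without parental replicate 3, and ALDH18A1 at -0.015 and -0.0023 without parental replicates 1 and 3. Leaving out single libraries, their log2 fold changes ran from -0.15 to 1.17, -0.028 to 0.10 and -0.015 to 0.070. The ratio of family totals, 1.58, was 1.72 on FPKM, 1.69 with library sizes alone, 1.43 without ALDH1A3, and 1.57 to 1.60 leaving out single libraries. Genes past the threshold numbered 8933, against 5290 with limma on unfiltered FPKM and 7666 to 9209 leaving out single libraries. Of 80 alternative share differences 12 were marked as moved, by a shift beyond the spread between replicates or by a change of sign. Among these 12, 2 changed sign, both for ALDH1A1, and their shifts were within the parental spread. With a replicate block 9973 genes passed, and the member counts were 4 and 3. The labels share replicate numbers without saying what a number marks, and the deviations of same-numbered libraries correlated at 0.088, 0.21 and 0.049, so the numbers were not taken as pairs. Of the parental libraries 2 of 3 correlated best with the resistant library of their own number. Low counts limit the precision for ALDH1A2, ALDH1L1, ALDH3B2 and the low retinoid genes.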
